A study of Homo sapiens with 2 samples.

Results

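NEAT1, NORAD, TUG1 and KCNQ1OT1 are 4 long noncoding RNAs (lncRNAs) with established names, chosen here by their gene symbols in the list of regions recovered with a catenin immunoprecipitation (IP). They were 4 of the 1658 gene symbols with at least 1 enriched region, or peak, and 4 of the 19 symbols that the list labels as lncRNA. The study made 2 libraries from MDA-MB-231 cells, an established line from a human breast cancer. One holds RNA recovered with catenin, written B-catenin in its title, and the other is an input; no further treatment is named. RNA was sheared to about 300 to 500 bp, and the stated purpose was to screen for lncRNAs that bind catenin. The values below belong to the catenin IP library, and the input library on its own was not analysed here. With 1 library in each group there is no spread between replicates, and samples could not be tested against each other. Intervals are exact 95% Poisson intervals, which cover counting error only, because no molecular identifiers tell separate molecules from copies.

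The 4 RNAs differ in what they are known for. NEAT1 is made as a short and a long form from a shared start, and the long form is the scaffold on which paraspeckles, a kind of nuclear body, assemble. NORAD is an abundant, largely cytoplasmic RNA with many binding sites for PUMILIO proteins, which repress mRNAs, and it is linked to genome stability. TUG1 is a conserved, widely expressed RNA found in nucleus and cytoplasm. KCNQ1OT1 is transcribed antisense to KCNQ1 from the paternal chromosome and takes part in silencing neighbouring imprinted genes. Beta-catenin itself is both a junction protein and the transcriptional effector of the Wnt pathway.

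The list gives, for each Ensembl transcript, the start and end of a peak in nucleotides (nt) along the transcript, its number of tags (sequenced fragments) and its fold enrichment, the ratio given by the authors' peak caller. The 4 genes took up 18 lines of it, on 10 transcripts. NEAT1 had 6 of these lines on 2 transcripts, TUG1 9 on 6, KCNQ1OT1 2 on 1 and NORAD 1 on 1. With the transcript that held the most tags taken for each gene, they had 11 of the 26 lncRNA peaks and 454 of the 942 lncRNA tags, which is 48.2% (exact binomial interval 45.0 to 51.4%). This interval treats tags as independent draws and covers counting error only. It does not reflect which genes were chosen. The tags of the 4 genes made up 0.339% of the 133739 tags over the peaks of all genes. The total depth of the library is not known from these sources, and the sum over peaks is not a depth.

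NORAD carried the most tags of the 4 and of all 19 lncRNA symbols, and carried them in 1 unbroken peak. ENST00000565493 had 190 tags (164 to 219) between nt 548 and 5123, a peak of 4576 nt. By length it ranked 37 of 2441 peaks, whose median length was 938 nt. The summit, the highest point of the peak, lay at nt 2177, or 35.6% of the way along it. In protein-coding genes the median summit lay 48.0% along its peak, with quartiles of 33.9% and 60.1%, so the NORAD summit lay between those quartiles. The tag density was 41.5 tags per kb of peak (35.8 to 47.9), and the fold was 11.26.

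NEAT1 followed with 168 tags (144 to 195) in 5 peaks along ENST00000501122. From the first to the last, the peaks held 75, 43, 15, 11 and 24 tags. The first began at nt 588 and ended at nt 2752, with its summit at nt 1896 and a fold of 14.47. After a gap of 65 nt the peak next to it ran from nt 2818 to 3643, with its summit at nt 3082 and the highest fold of the gene, 15.04. These neighbouring peaks thus carried 118 of the 168 tags. The third peak (nt 3867 to 4666) had a fold of 5.21 and the fourth (nt 5350 to 5797) a fold of 5.79, where the smallest fold of the list was 2.55. In tags the third was close to the smallest count of the list, 11, and the fourth was at it.

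The fifth NEAT1 peak stood far from the others. It ran from nt 17861 to 18646, had its summit at nt 18124, and held 24 tags (15.4 to 35.7) at a fold of 9.84. Between nt 5797 and this peak no peak was listed over 12063 nt. Of the 783 gaps between adjacent peaks of a transcript this was the second longest, after 14885 nt in AHNAK2, which encodes a giant scaffold-like protein, and the median gap was 526 nt. From its first start to its last end NEAT1 spanned 18059 nt, second of the 1658 genes after AHNAK with 18401 nt, and 27.8% of that span lay in peaks. A gap or span of this size needs a transcript at least that long, and genes of like transcript length were not compared. The list holds only regions that passed the authors' threshold, so a stretch without a peak is not a stretch shown to be without tags.

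Tag density also varied among the NEAT1 peaks. The second peak held 52.1 tags per kb (37.7 to 70.1) and the third 18.8 (10.5 to 30.9), and these intervals do not overlap. The first peak stood at 34.6 tags per kb (27.2 to 43.4), the fourth at 24.6 (12.3 to 43.9) and the fifth at 30.5 (19.6 to 45.4). Each of these 3 intervals overlaps those of all the other NEAT1 peaks. Overlap of intervals does not show that densities are equal.

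**Figure D1:**
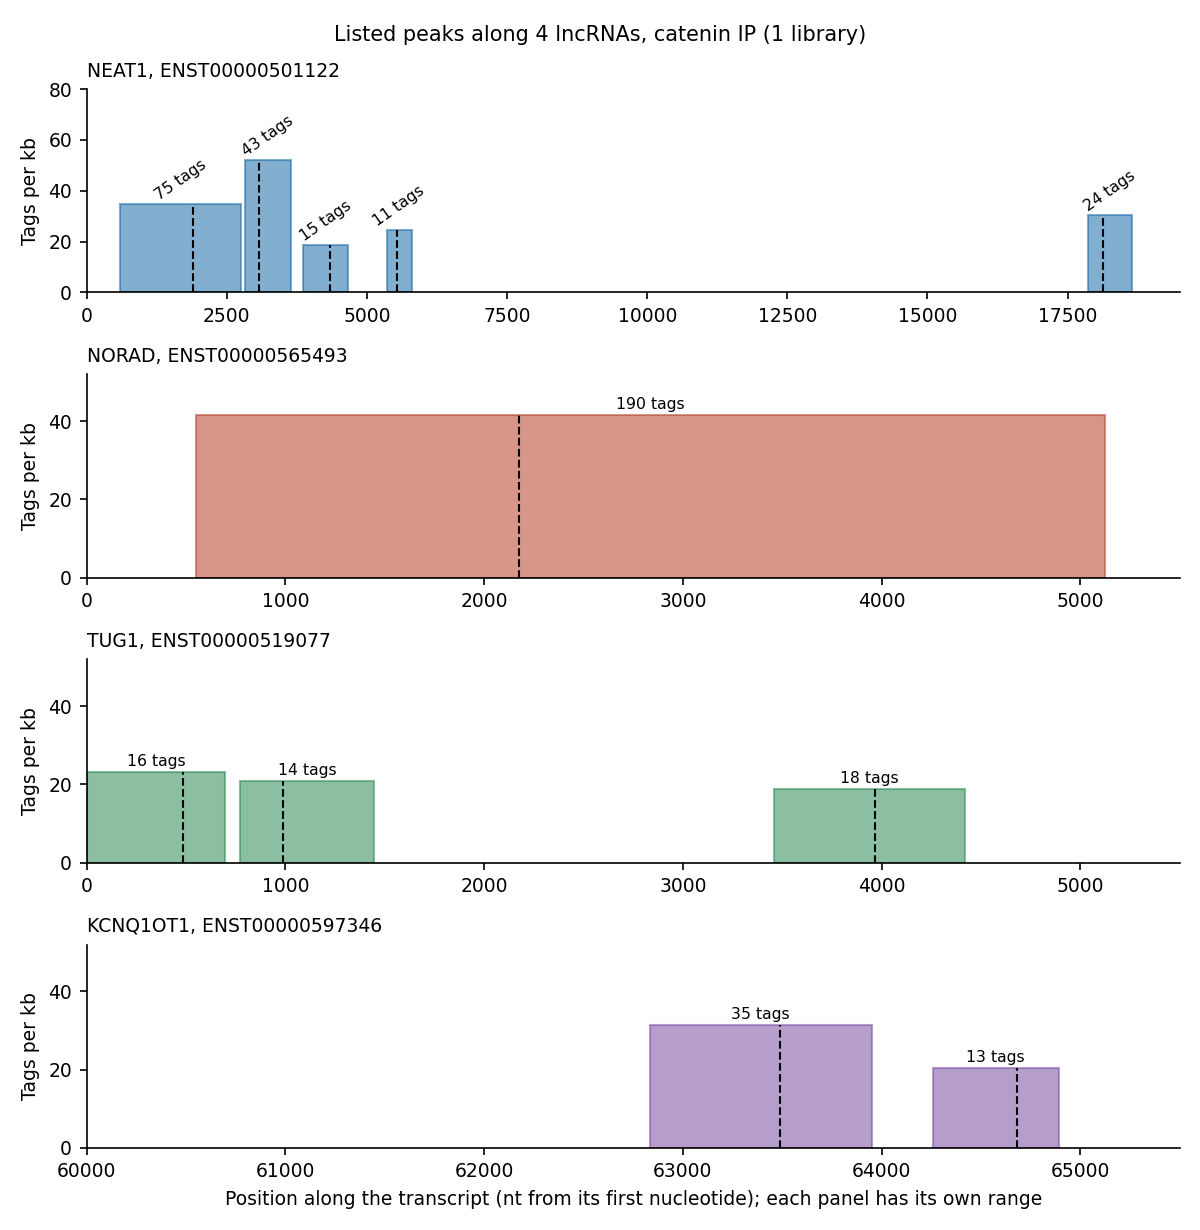
Peaks along the transcript with the most tags of each gene in the catenin IP library. The x axis is the position in nt from the first nucleotide of the transcript, with a range of its own in each panel (the KCNQ1OT1 panel does not begin at 0), bar height is tags per kb of peak, the dashed line marks the summit and the number of tags stands above each bar. NORAD has a single peak of 4576 nt, while the last of the 5 NEAT1 peaks is separated from the others by 12063 nt.

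The other listed NEAT1 transcript, ENST00000499732, had 1 peak with 21 tags (13.0 to 32.1) at nt 714 to 1510, a summit at nt 969 and a fold of 6.95. The most tags on a NEAT1 transcript were thus 8 times the fewest. Of the 395 protein-coding genes with 2 listed transcripts, 391 had a smaller ratio, and their median ratio was 1. The 4 with a larger one, picked out after their values were seen, were ARHGAP29, BOD1L1, LRRFIP1 and SETD2. Densities of the NEAT1 transcripts, 33.4 tags per kb (28.6 to 38.9) and 26.3 (16.3 to 40.3), overlapped in their intervals, so the difference in tags went with a shorter length in peaks, 797 against 5025 nt. Whether the 21 tags are also counted on ENST00000501122 was not checked, so the counts of these transcripts may not be independent.

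TUG1 had 48 tags (35.4 to 63.6) in 3 peaks along ENST00000519077. The first reached from nt 4, almost the start of the transcript, to nt 693 and held 16 tags at a fold of 6.95. The second, from nt 774 to 1445, held 14 tags at a fold of 6.37. The third, from nt 3459 to 4417, held 18 tags at a fold of 7.52. Their summits were at nt 484, 986 and 3965. The 3 densities were 23.2, 20.8 and 18.8 tags per kb, each within the intervals of the others, so the peaks cannot be ranked at this depth. All 3 had scores, a further value of the authors for each peak, under 50 (43.94, 35.04 and 36.15). Between the second and the third peak no peak was listed over 2013 nt.

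Of the 6 listed TUG1 transcripts 5 shared peaks with one another. The second peak of ENST00000519077 recurred in 4 transcripts with the same length of 672 nt, the same 14 tags and the same distance from start to summit. It began at nt 774 there, at nt 1163 in ENST00000540687, at nt 652 in ENST00000602393 and at nt 14 in ENST00000602971. Shifting ENST00000540687 by -389 nt, so that this peak coincides, also brought the summit and the end of its first peak onto nt 484 and 693, those of the first peak of ENST00000519077. The peak of ENST00000566220 was matched by its distance from summit to end, 209 nt in each case, and the shift of -18 nt was set from its end. Its summit and end therefore coincide by construction, and it had no second peak to check the shift. By these matches the first peak was found in 3 transcripts, with 16, 17 and 18 tags, and differed among them in where it began, at nt 4, -12 and -29 on the scale of ENST00000519077.

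The 18-tag peak at nt 3459 to 4417 was listed for ENST00000519077 alone among the 6. ENST00000521091 carried a peak of 12 tags (6.20 to 21.0) at nt 616 to 1200 that was not placed on another. Its length of 585 nt and its distance from summit to end differed, and a match by start was not tried. Its summit lay 216 nt along the peak, against 213 nt in the shared second peak. Whether it is a shorter form of that peak was not tested. Tags per TUG1 transcript ran from 12 to 48, a ratio of 4, above that of 48 of the 58 protein-coding genes with 6 listed transcripts (median 1.84, quartiles 1.21 and 3.25). Densities ran only from 20.5 to 24.1 tags per kb. Because the transcripts share peaks, their values are not independent and were not added.

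**Figure D2:**
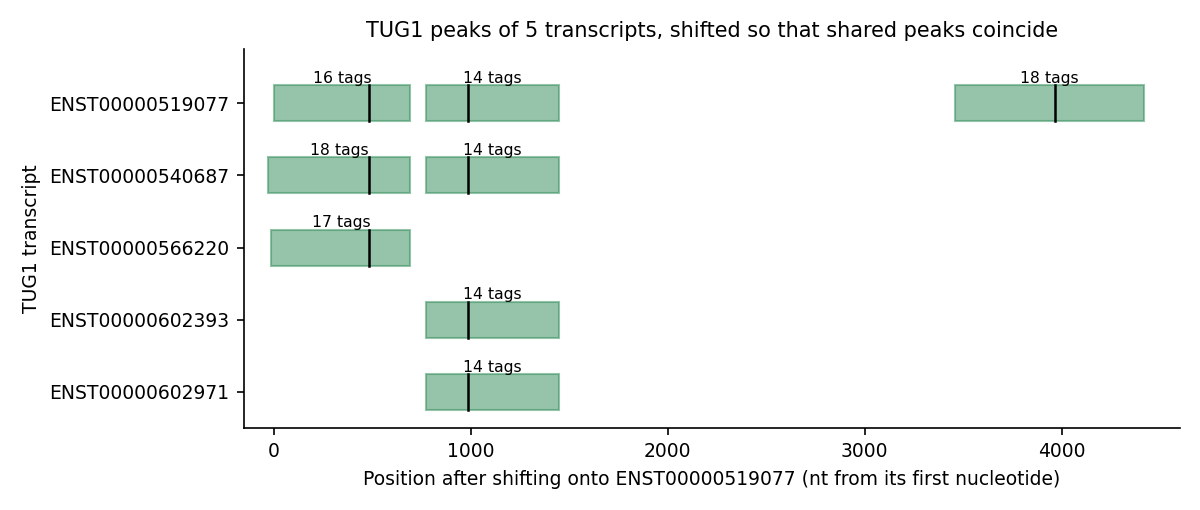
TUG1 peaks of 5 of the 6 listed transcripts, shifted so that shared peaks coincide on the scale of ENST00000519077 (x axis, nt from its first nucleotide). Each bar is a peak with its tag number above it and the black line is its summit. The peak of 14 tags recurs in 4 transcripts, the first peak in 3, and the third peak in 1, while ENST00000521091 was not placed. ENST00000566220 was placed only by the distance from summit to end of its peak.

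KCNQ1OT1 also had 48 tags (35.4 to 63.6), in 2 peaks of ENST00000597346 that lay 308 nt apart. The first, at nt 62834 to 63948, held 35 tags (24.4 to 48.7) with its summit at nt 63487 and a fold of 8.68. The second, at nt 64257 to 64890, held 13 tags (6.92 to 22.2) with its summit at nt 64683 and a fold of 4.63. Their densities were 31.4 (21.9 to 43.7) and 20.5 (10.9 to 35.1) tags per kb, with overlapping intervals. These were the peaks that began farthest along any transcript among the 2441, which only a transcript of at least that length allows. The fifth NEAT1 peak came next. SYNE2, which encodes a giant nuclear envelope protein, followed with a start at nt 17423. All KCNQ1OT1 tags in peaks therefore came from a window of 2057 nt, and no peak was listed over the long stretch before it. KCNQ1, whose gene KCNQ1OT1 overlaps in the reference annotation, had no listed peak. The sources used here do not say whether tags were counted by strand, so tags of the sense strand could be among them.

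Across the 4 genes the densities fell in the order NORAD, NEAT1, KCNQ1OT1 and TUG1. The NORAD interval (35.8 to 47.9 tags per kb) and the NEAT1 interval (28.6 to 38.9) overlapped, as did those of NEAT1 and KCNQ1OT1 (20.2 to 36.4) and those of KCNQ1OT1 and TUG1 (15.2 to 27.4). Each pair of neighbours in this order thus had overlapping intervals, while those of NORAD and NEAT1 both lay above that of TUG1. The order depends on the length used: over the whole span of the peaks, gaps included, NORAD had 41.5 tags per kb, KCNQ1OT1 23.3, TUG1 10.9 and NEAT1 9.30, so that NEAT1 came last, below TUG1. NORAD also lay above KCNQ1OT1 in value, with intervals that touched between 35.8 and 36.4. TUG1, at 20.7 tags per kb, ranked 1535 of the 1658 genes and 17 of the 19 lncRNA symbols, against medians of 29.8 over all genes and 26.6 over lncRNAs. NORAD ranked 386 and NEAT1 644 of 1658.

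**Figure D3:**
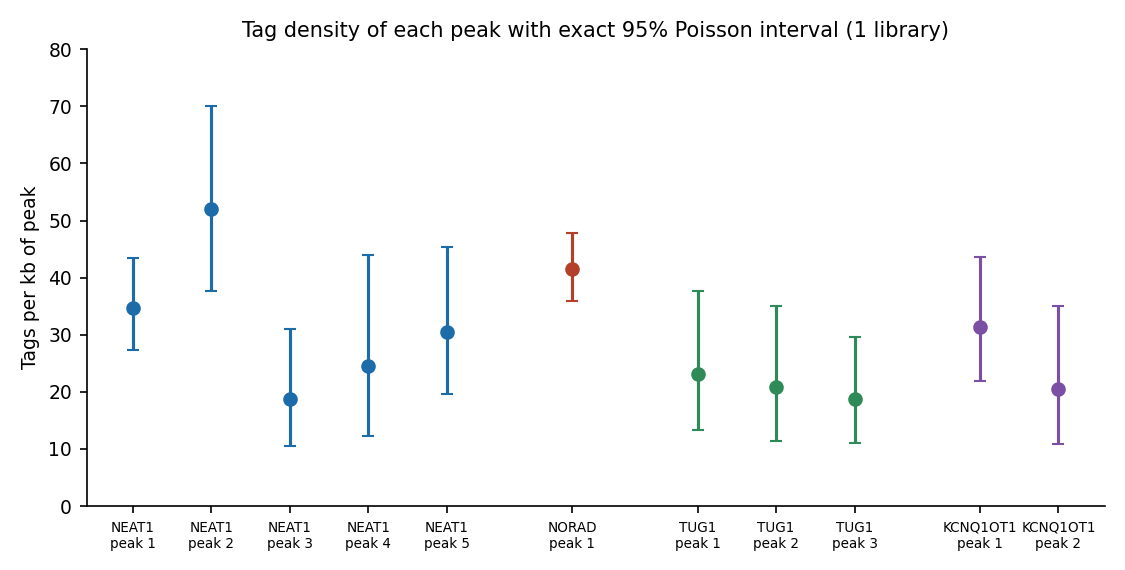
Tags per kb for each of the 11 peaks on the transcript with the most tags of each gene; points are the measured densities and bars the exact 95% Poisson intervals. The second NEAT1 peak (52.1 tags per kb) lies above the others, and its interval is clear of those of the third NEAT1 peak, the 3 TUG1 peaks and the second KCNQ1OT1 peak; the second TUG1 and KCNQ1OT1 peaks, near 20.8 and 20.5, have intervals that reach down to about 11.4 and 10.9.

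By fold, NEAT1 (15.04) and NORAD (11.26) were 2 of the 4 genes with a fold of at least 10, a level passed by 504 of the 1658 genes, or 30.4%. KCNQ1OT1 (8.68) and TUG1 (7.52) stood near the median over genes, 7.62, but below the median over the 19 lncRNA symbols, 9.26. Among those 19, NEAT1 ranked 3, NORAD 5, KCNQ1OT1 11 and TUG1 16 by fold. Folds came in steps: 70.3% of the 2441 peaks had one at a multiple of 0.5788, with a tolerance of 0.0051. Of the 18 lines of the 4 genes 16 were such multiples: in TUG1 from 10 to 13 steps, in KCNQ1OT1 15 and 8, and in NEAT1 25, 9, 10 and 17 steps for 4 of its 5 peaks on ENST00000501122. The highest NEAT1 fold and the NORAD fold were not, at 25.98 and 19.45 steps. In all 1717 peaks on the multiples, the number of steps was no greater than the number of tags. The sources used here do not say what a step stands for. The 3 TUG1 peaks of ENST00000519077 differed by 1 or 2 steps.

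The genes were next set beside protein-coding genes of like tag number, those within 20% of the tags of each. Because tags are alike within a group, a longer summed peak length brings a lower density. Length and density are therefore not separate results. For NEAT1 these were 115 genes with 135 to 198 tags. NEAT1 had 5 peaks where their median was 2, and 107 of the 115 had fewer. The 5 genes with more, FAT1, SMG1, SYNE2, USP34 and UTRN, were picked out after their values were seen and had 6 peaks each. The NEAT1 span exceeded that of all 115, whose median was 3908 nt, and 1 of them, MDN1, also picked out afterwards, had a smaller part of its span in peaks. Transcript length bounds the span, and the 115 were not matched to NEAT1 in length. Their last peaks ended at a median of nt 4303, against nt 18646 in NEAT1. With 33.4 tags per kb against a median of 46.3, NEAT1 was denser than 15 of the 115. Of the 3 among them that also had 5 peaks, it was denser than 2, AFDN at 28.5 and NFAT5 at 30.7 tags per kb. These 3 genes are too few to place it (2 of 3, exact binomial interval 9.43 to 99.2%). Its fold of 15.04 lay above that of 70 of the 115, whose median was 13.31.

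The coding genes nearest to NEAT1 in tags show the range behind these medians. ARHGAP29, a gene for a GTPase-activating protein, had the same 168 tags in 2 peaks at 45.9 tags per kb (39.2 to 53.4) and a highest fold of 8.15. NFE2L1, a transcription factor gene, also had 168 tags in 2 peaks, at 49.2 tags per kb (42.0 to 57.2) and a fold of 7.98. HNRNPC, which encodes an abundant nuclear RNA-binding protein, had 167 tags in a single peak of 1141 nt, or 146 tags per kb (125 to 170), at a fold of 4.30. All 3 intervals of density lay above the NEAT1 interval, while all 3 folds were lower.

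For NORAD, 101 coding genes had 152 to 227 tags. Its density of 41.5 tags per kb was above that of 29 of them (median 47.7) and its fold above that of 39 (median 13.31), so both lay inside the range of the group. Of the 41 genes in this group with 1 peak, ZC3H13, picked out after its values were seen, had a longer one (4935 nt, 193 tags, 39.1 tags per kb) and a lower density, and the median was 2797 nt and 66.9 tags per kb. PRKCA, a protein kinase C gene, shared the 190 tags of NORAD but spread them over 4 peaks at 31.9 tags per kb (27.5 to 36.7), with a fold of 8.10. SET, which encodes a histone chaperone, had its 190 tags in 1542 nt at 123 tags per kb (106 to 142) and a fold of 4.17. BPTF, a chromatin remodelling gene, had 191 tags in 3 peaks at 45.0 tags per kb (38.8 to 51.8) and a fold of 18.52. NORAD thus overlapped PRKCA and BPTF in density and lay below SET.

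TUG1 and KCNQ1OT1, with equal tags, shared a comparison group of 215 coding genes with 39 to 57 tags. TUG1 had 3 peaks, a number reached by 13 of the 215 and passed by none of them, and its peaks summed to 2321 nt where the median was 1524. Its density was higher than that of 3 of the 215: RHOBTB3 at 19.6 tags per kb, SORT1 at 19.6 and SYNE1 at 20.7, a group picked out after the values were seen. Among the 13 genes with 3 peaks the median was 23.0 tags per kb and the lowest 21.3, so TUG1 was below all 13, by an amount smaller than its own counting interval of 15.2 to 27.4. Its fold of 7.52 was above that of 75 of the 215 and equal to that of 10. The first peak began at nt 4, earlier than the first peak of 211 of the 215.

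KCNQ1OT1 was near the middle of the same 215 genes in most respects. Its density of 27.4 tags per kb was above that of 77 (median 30.6) and its fold of 8.68 above that of 111 (median 8.37). Its 2 peaks summed to 1749 nt, more than in 142 of the 215. In position it stood outside the group, since all 215 began earlier than nt 62834 and ended by nt 13531. A peak so far along needs a transcript at least that long. Transcript lengths were not compared, so this position is not set against genes of like length. The nearest genes in tags, each with 48, were AGO2, the Argonaute protein of small RNA silencing (32.2 tags per kb, interval 23.7 to 42.7, fold 12.16), AGPS, an enzyme of ether lipid synthesis (27.9, 20.6 to 37.0, fold 3.74) and CEP164, a centriole protein gene (30.0, 22.1 to 39.8, fold 6.37). Their density intervals overlapped those of KCNQ1OT1 and of TUG1.

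**Figure D4:**
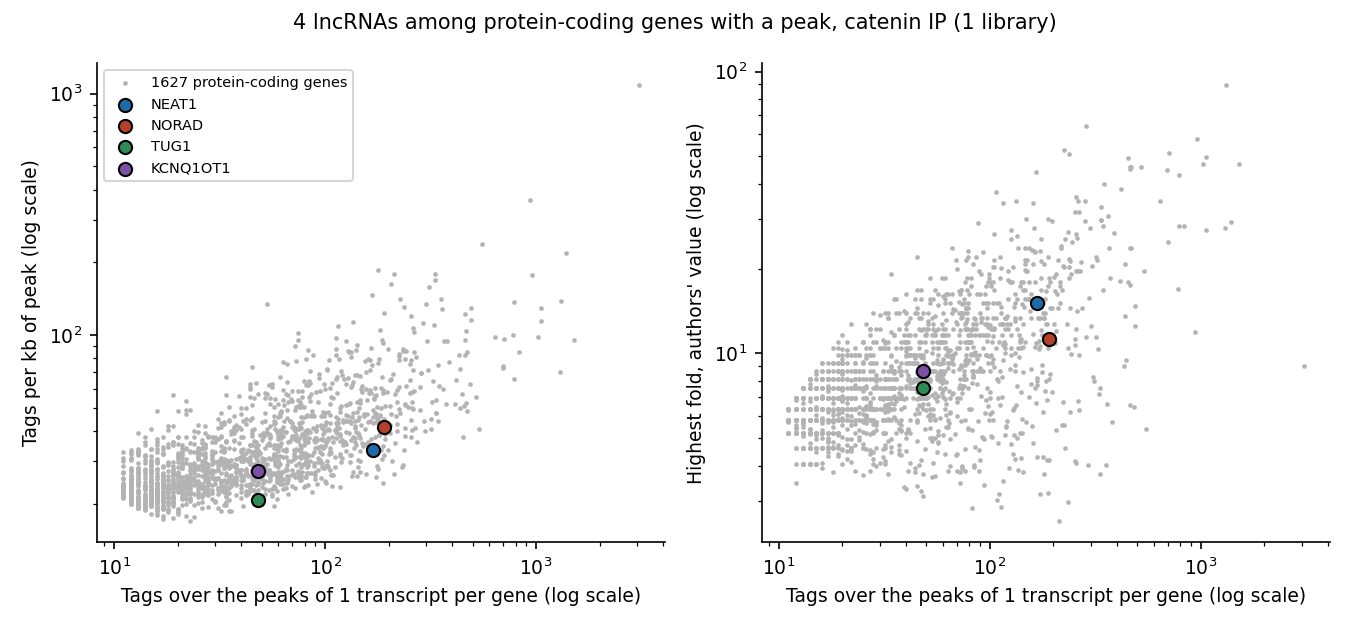
Tags over the peaks of 1 transcript per gene (x axis, log scale) against tags per kb of peak (left, log scale) and against the highest fold given by the authors (right, log scale), for 1627 protein-coding genes in grey and the 4 lncRNAs in colour. In density TUG1 lies at the lower edge and NEAT1 in the lower part of the coding genes with like tags, and in fold all 4 lie within the cloud.

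The mRNAs of proteins known to work with these RNAs were looked up in lists drawn from general knowledge. As background, 8.11% of the 20056 protein-coding symbols of the reference table had a listed peak. That share includes genes that may not be expressed in these cells, and the lists were chosen with earlier results of these data known. Counts above it are therefore not read as an excess of partner mRNAs, and lists of like expression were not compared. Of 18 paraspeckle protein genes 8 had a peak, with a median highest fold of 5.02 against 7.52 over the coding genes with a peak. SMARCA4, a chromatin remodelling ATPase, stood at a fold of 34.60 with 133 tags (111 to 158). NUDT21, a cleavage factor subunit, stood at 9.92 with 82 tags and NONO, a core paraspeckle protein, at 8.64 with 35 (24.4 to 48.7). The RNA-binding protein genes HNRNPM (5.04, 102 tags), TAF15 (4.99, 40), HNRNPH3 (4.49, 22), MATR3 (4.15, 254) and HNRNPA1 (3.73, 331) had folds below 6.37, that of the lowest TUG1 peak on ENST00000519077. SFPQ and PSPC1, the other core paraspeckle proteins, had no listed peak.

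Of 8 genes of the NORAD and PUMILIO list 3 had a peak, and their median fold was 12.16. CDC5L, a splicing factor, stood at 12.94 with 91 tags (73.3 to 112), PUM2, a PUMILIO protein, at 12.16 with 83 (66.1 to 103) and TOP1, DNA topoisomerase I, at 9.89 with 263 (232 to 297). RBMX had none. PUM2 had its tags in 2 peaks at 29.0 tags per kb (23.1 to 35.9), below the NORAD density with intervals that barely overlapped at 35.8 to 35.9. Of 11 genes for Polycomb, its partners and the KCNQ1 domain 2 had a peak. These were DNMT1, the maintenance DNA methyltransferase (20.43, 305 tags, 272 to 341), and SUZ12, a subunit of Polycomb repressive complex (11.00, 58 tags, 44.0 to 75.0). The imprinted neighbours CDKN1C, PHLDA2 and SLC22A18 had none. These counts describe 1 library.

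None of 16 other long named lncRNAs looked up, among them MALAT1, GAS5 and HOTAIR, had a listed peak. In the reference table, 9 of 18330 lncRNA symbols had one, or 0.0491%, so a count of 0 is near this background. The 9 include NEAT1, NORAD and KCNQ1OT1. They are fewer than the 19 labelled symbols, because the table lacks some of those and types others differently, TUG1 among them. How many of the 18330 are expressed in these cells was not known. Of the marker genes looked up for the cell line, 3 of 6 markers of mesenchymal or basal cells were listed (FN1 with 413 tags, EGFR with 318 and ZEB1 with 17). VIM, CD44 and AXL of the same 6 were not listed. Of luminal epithelial markers 0 of 7 were. At the background of 8.11% for coding symbols, 0 of 7 says nothing about the line. A listed peak is not a level of expression, so the 3 of 6 do not show its type either. A list of peaks gives no level for genes without one.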

How the data were processed

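The deposited table lists peaks along Ensembl transcripts for the catenin IP library. Tags are whole-number counts per peak, as deposited by the authors, and the fold enrichment is a ratio from their peak caller, per the file headers. A further deposited column has lost its name and is called the score here; its minimum is 30, and it served to filter peaks. Start, end and length agree in all 6195 lines. The summit never exceeded the peak length and lay below the start in 3918 lines, so it was read as a distance from the start, and its position is the start plus this distance minus 1. The submitters' processing notes name the build hg18; the sources used here do not name an aligner, peak caller, transcript annotation or background library, and positions are therefore along transcripts.

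Each gene was represented by its transcript with the most tags (ties by fold, then by identifier). Tags per kb are tags over the summed length of its peaks. Gene types and neighbours come from the RefSeq table of GRCh38.p14, in which 1592 symbols were found and 46 more under an older symbol; this table types TUG1 as protein-coding, and it was kept out of the coding genes. Poisson and Clopper-Pearson intervals are at 95%. Like tags means within 20%. The rule for named genes was the 4 lncRNAs, the 3 coding genes nearest to each in tags, with ties in alphabetical order, and list genes with a peak. Other genes with a peak were picked out later. Among these, AHNAK, AHNAK2, SYNE2, AFDN and NFAT5 are not marked so at every mention. The members and lists were chosen with earlier results of these data known. Values of some single genes are left out of the text. The design foresaw no test, since each group has 1 library. Procedures were tested on simulated data. Alternatives were other transcripts, score minimums of 50 and 100, windows of 10 and 40%, coding genes by region label and, chosen after seeing the data, genes with the same number of peaks. Computations used Python 3.11.15, pandas 2.3.3, numpy 2.4.6, scipy 1.17.1 and matplotlib 3.10.9.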

Additional observations from a re-analysis of the deposited data

How the results depend on the processing

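No paired analysis was possible because there is 1 library per group, which also leaves no library to omit. Of 47 values under alternatives, 31 stayed within the counting interval of the main value, or equal to it where it has none. A score of at least 50 left NEAT1 with 142 tags, KCNQ1OT1 with 35 and TUG1 with 18 at a fold of 6.95, on ENST00000540687, since all 3 peaks of ENST00000519077 fell below it; a score of at least 100 left NEAT1 with 118, KCNQ1OT1 with 35 and TUG1 with no peak. Over the span of the peaks, gaps included, NEAT1 had 9.30 tags per kb and TUG1 10.9, which turns their order. The NEAT1 transcript with the fewest tags had 26.3 tags per kb. Counting every listed transcript gave 6 peaks for NEAT1 and 9 for TUG1. The share of coding genes of like tags with a lower density than NEAT1, 13.0%, was 7.14% in a window of 10%. Among coding genes with the same number of peaks as well, an alternative chosen after seeing the data, that share was 66.7% for NEAT1 (2 of 3 genes, exact binomial interval 9.43 to 99.2%, which holds the main value), 2.44% for NORAD, 0% for TUG1 and 53.6% for KCNQ1OT1. Some of the settings leave fewer peaks or genes. The cause of these changes was not tested. The peaks of TUG1 rest on 12 to 18 tags each, so they cannot be ordered at this depth.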

Other observations

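Protein-coding genes next to the 4 lncRNAs in the reference annotation were looked up after the main values. Among the nearest coding neighbours reported here, MORC2, beside TUG1 and encoding a chromatin-silencing ATPase, had a peak, with 37 tags and a highest fold of 8.93. FRMD8 beside NEAT1, CNBD2 and EPB41L1 beside NORAD, SMTN beside TUG1, and TRPM5 and CDKN1C beside KCNQ1OT1 had none listed.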
